A study of Mus musculus with 3 samples.

Results

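The 10 genes described here encode cyclic nucleotide phosphodiesterases, and were chosen by gene symbol: Pde1a, Pde1c, Pde2a, Pde3a, Pde3b, Pde4a, Pde4b, Pde4d, Pde5a and Pde7a. All 10 were measured, on 12 probe sets, among 19938 genes in all. The samples came from adult male mice that carry a Ren1c-YFP transgene, in which yellow fluorescent protein (YFP) marks cells that use the renin promoter; strain was unspecified. All mice ate low-salt chow and drank water with 0.5 mg/ml captopril, which blocks angiotensin-converting enzyme, for 2 weeks, and YFP-positive cells were then sorted from digested kidney cortex. The series holds 1 group of 3 single-colour arrays, replicates 2, 4 and 5. Neither untreated mice nor YFP-negative cells are among them, so every value is a level in sorted cells and none is an effect of captopril or salt.

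Cyclic nucleotide phosphodiesterases break down the second messengers cAMP and cGMP, and so set how long and where in a cell these signals last. In juxtaglomerular cells a rise in cAMP is the main stimulus of renin release, while cGMP can act on the same pool through phosphodiesterases that it inhibits or stimulates. Members of the PDE1 family are switched on by calcium and calmodulin, PDE2 is stimulated and PDE3 inhibited by cGMP, PDE4 and PDE7 act on cAMP, and PDE5 acts on cGMP.

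Promoter windows from RefSeq (GRCm38.p6) were available for 7 of the 10 genes, 21 windows in all, and not for Pde3a, Pde3b or Pde7a. The windows of the genes above background are of interest for the cAMP response element, the site bound by the cAMP-regulated factor CREB, because these enzymes act on cAMP. Of the 250 bases before each start, on both strands, 0 of 21 windows held the whole element TGACGTCA, against 1.55% of all 32851 windows. An element this rare can be missing from 21 windows of any genes, so the count does not set the members apart. The half-site TGACG, which is part of the whole element, was in 3 of 21 windows (14.3%), against 17.8% of all windows. It was in 1 window each of Pde1a, Pde4a and Pde4b. Shown are the Pde1a window with that half-site, 1 of 4 for the gene (chr2:80038903-80039152, minus strand), and the only window of Pde4d (chr13:108653927-108654176, plus strand), with bases of the half-site in capitals. The half-site of Pde1a is read on the opposite strand of the gene, so it stands as CGTCA in the window. The leftmost of these capitals lies at -166 from the start, and the Pde4d window holds none. These are matches of letters only, and the data do not show which start was used.
Pde1a: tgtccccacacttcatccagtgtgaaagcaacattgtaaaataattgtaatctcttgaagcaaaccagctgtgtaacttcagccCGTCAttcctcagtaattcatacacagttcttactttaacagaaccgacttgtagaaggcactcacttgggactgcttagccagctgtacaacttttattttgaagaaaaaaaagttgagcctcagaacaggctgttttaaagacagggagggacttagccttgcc
Pde4d: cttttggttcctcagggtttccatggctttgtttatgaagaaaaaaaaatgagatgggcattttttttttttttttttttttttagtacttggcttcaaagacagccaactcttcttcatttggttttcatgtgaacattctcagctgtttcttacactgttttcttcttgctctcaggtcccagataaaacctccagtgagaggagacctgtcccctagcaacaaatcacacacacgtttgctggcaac

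Transcripts of Pde1a, Pde3a, Pde3b and Pde4d were above background in the sorted cells, and those of the other 6 genes did not pass the test. Pde1a and Pde3a were each over 2 log2 units above background on every array. Every call is a log2 signal against the level of the same array, taken as the 95th percentile of its 1027 olfactory receptor genes (6.20, 6.32 and 6.50 in replicates 2, 4 and 5). The test was limma's one-sided test of a mean above that level, with Benjamini-Hochberg adjustment over 19938 genes. By this rule 4 of 10 phosphodiesterase genes were called (40%), against 37.3% of all genes, so the count is near the background share. The median height above the level was 0.16 log2 units for the 10 genes and -0.01 for all genes. Probe affinity also sets a signal, so signals of different genes do not show which transcript was more abundant. The level comes from other probe sets, so affinity also enters each height and call, and the p-values do not measure it. In bulk samples fewer cells of a type and less RNA per cell cannot be told apart.

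The members that act on both nucleotides were called in 3 of 5 cases and those specific for cAMP in 1 of 4, against 37.3% of all genes. The cGMP-specific Pde5a was not called. Counts this small do not tell the substrate groups apart. Of the 10 genes, 5 lay above the level on all 3 arrays, 2 on some and 3 on none. The matching shares over all genes were not computed, so this split is not read as a trait of the members.

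**Figure D1:**
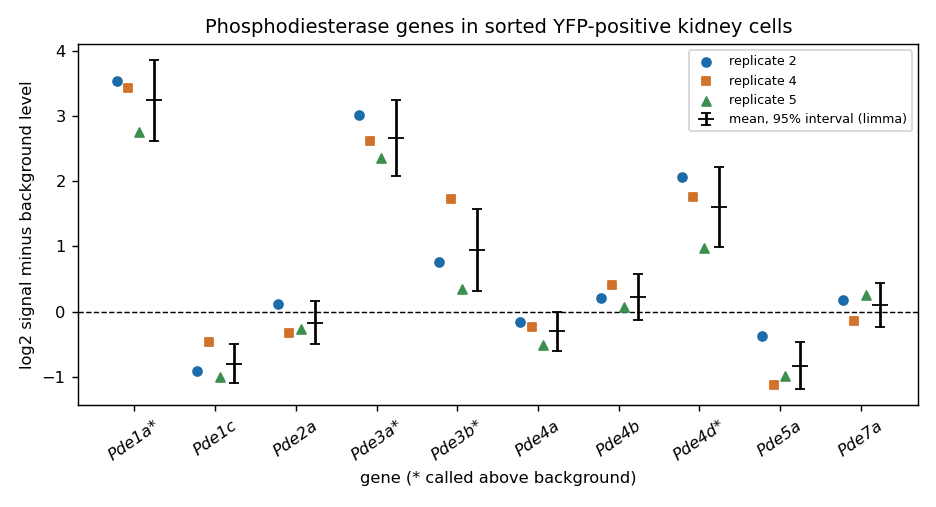
Log2 signal minus the background level of the same array, for each of the 10 phosphodiesterase genes (coloured symbols, the 3 arrays; black bar, mean with the 95% interval of the limma fit); the dashed line is the level. Pde1a, Pde3a, Pde3b and Pde4d are called, and the interval of Pde1a runs from 2.62 to 3.85.

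The calcium-activated enzyme PDE1A is one of the PDE1 isoforms and turns over cGMP in vascular smooth muscle. Pde1a had log2 signals of 9.74, 9.75 and 9.25 in replicates 2, 4 and 5. Replicates 2 and 4 were alike, replicate 5 was the lowest, and all 3 arrays lay far above the level. The mean of 9.58 ± 0.28 (SD, n = 3) was 3.24 above background (95% interval 2.62 to 3.85, limma adjusted p = 1.97e-05), and 0 of the 1027 olfactory receptor genes had a mean height as high. Pde1c, whose product has a high affinity for both cAMP and cGMP, had log2 signals of 5.29, 5.85 and 5.50. All were under the level, the mean of 5.55 ± 0.28 was -0.80 from it (95% interval -1.10 to -0.50), and 18.9% of olfactory receptor genes were at least as high.

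PDE2A is the enzyme that cGMP stimulates. Pde2a had log2 signals of 6.31, 5.99 and 6.23, above the level in replicate 2 alone, and a mean -0.17 from it (95% interval -0.49 to 0.16). Its signals in replicates 2 and 5 were close, and the level was 6.20 in replicate 2 and 6.50 in replicate 5. Pde2a was lowest in replicate 4. The 14 endothelial markers, a cell type in which Pde2a is known to be used, had a mean log2 signal of 7.86 in replicate 2 and of 7.03 and 6.99 in the other two arrays, and 12 of the 14 were highest in replicate 2. The share of all called genes highest in replicate 2 was not computed. The part of endothelial cells in the value of Pde2a was not tested.

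PDE3A and PDE3B are the cAMP-degrading enzymes that cGMP inhibits, and drugs that block them are known to raise renin release. Pde3a had log2 signals of 9.22, 8.94 and 8.85, close together and all over 2 log2 units above the level. Its mean of 9.01 ± 0.19 was 2.66 above the level (95% interval 2.08 to 3.25, limma adjusted p = 4.24e-05). Pde3b had log2 signals of 6.97, 8.04 and 6.85, with replicate 4 apart from the other two arrays. The mean of 7.29 ± 0.66 was 0.95 above the level (95% interval 0.32 to 1.57, limma adjusted p = 0.0132), and the call was lost without replicate 4, at a height of 0.56 (limma adjusted p = 0.0826, where 32.1% of all genes were called).

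The PDE4 enzymes are specific for cAMP and are tied to protein kinase A by anchoring proteins. Pde4d had log2 signals of 8.27, 8.06 and 7.48 on its brightest probe set. Replicate 5 was the lowest, yet all arrays were above the level. The mean of 7.94 ± 0.41 was 1.60 above the level (95% interval 0.99 to 2.21, limma adjusted p = 0.000833). Pde4b, whose product is known from leukocytes, had 6.41, 6.73 and 6.57, above the level on all 3 arrays by small amounts. Its mean of 6.57 ± 0.16 was 0.23 above the level and did not pass (95% interval -0.12 to 0.57, limma adjusted p = 0.195). Pde4a had 6.04, 6.08 and 5.99, the tightest spread of the 10 genes (SD 0.04), and lay under the level on every array by a mean of -0.30 (95% interval -0.60 to -0.01).

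Of the 10 genes, Pde4d alone had more than 1 probe set, and its 3 probe sets differed in their calls. The second had log2 signals of 7.52, 7.24 and 6.84 and was above the level (limma adjusted p = 0.00974 over all probe sets with 1 symbol). The third had 6.19, 4.86 and 4.08, was under the level on every array, and spanned 2.11 log2 units between arrays. The annotation ties the third to a single cDNA accession, and the other two probe sets to 18 and 4 accessions. With the mean over the 3 probe sets the call of Pde4d was lost, at a height of 0.40 (limma adjusted p = 0.202), while 37.1% of all genes were called.

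**Figure D2:**
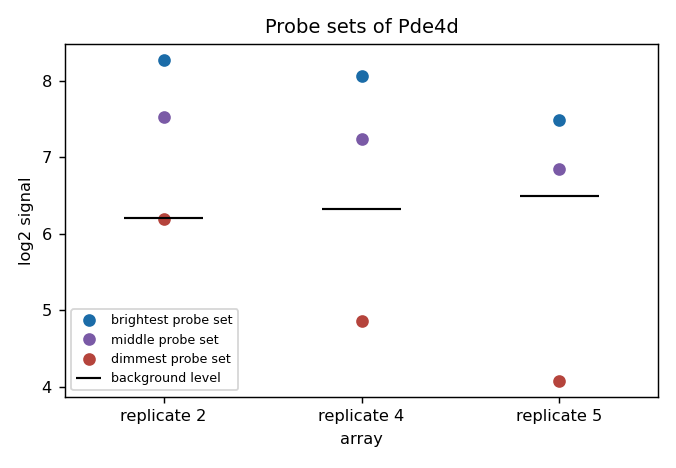
Log2 signal of the 3 probe sets annotated to Pde4d on each array (points), with the background level of that array (short black bars). The brightest probe set lies between 7.48 and 8.27, and the dimmest between 4.08 and 6.19, under the level on each array.

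PDE5A breaks down cGMP alone and is the target of sildenafil. Pde5a had log2 signals of 5.83, 5.19 and 5.51, all under the level. The mean of 5.51 ± 0.32 was -0.83 from it (95% interval -1.18 to -0.47), and 19.9% of olfactory receptor genes were at least as high. PDE7A is specific for cAMP. Pde7a had 6.38, 6.17 and 6.77, above the level on 2 arrays and under it in replicate 4, with a mean 0.10 above it that did not pass (95% interval -0.24 to 0.44, limma adjusted p = 0.567). A transcript that did not pass was not measured above background here, which does not show that it is absent.

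The calls rested on where background was set. With the 90th percentile of olfactory receptor genes 6 of 10 were called and with the 99th percentile 2, Pde1a and Pde3a, while 50.0% and 16.6% of all genes were called. With a level from vomeronasal receptor genes 8 of 10 were called, against 67.3% of all genes. With one from keratin-associated protein genes none was called by limma (1 at an unadjusted p under 0.05), against 3.56% of all genes.

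The median range between the highest and lowest array was 0.52 log2 units over the 10 phosphodiesterase genes and 0.41 over all genes. Over the 4 called members it was 0.64, and over the 7437 called genes 0.51. Pde3b, with a range of 1.19, was the only one of the 10 over 1 log2 unit on the deposited scale (Pde4d was a second after each array's level was subtracted, or with the mean over its probe sets), while 8.66% of all genes and 13.7% of called genes exceeded it. The 4 called members were all lowest in replicate 5 on the deposited scale. After quantile normalization 3 of them were, and Pde3a was lowest in replicate 4 (8.86, against 9.04 in replicate 5). The share of all called genes lowest in replicate 5 was not computed, so this count is not read as a trait of the members. Relative to the mean of the other two arrays, replicate 5 was at -0.69 for Pde4d and at -0.49 for Pde1a. Pde3b was highest in replicate 4 under both scalings. With 1 group of 3 arrays, differences between arrays have no replicate and no test.

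Markers of other kidney cells also differed between the arrays. The 5 thick ascending limb markers were all highest in replicate 4, with mean log2 signals of 10.72, 11.15 and 10.08 in replicates 2, 4 and 5. The 6 principal cell markers had means of 7.42, 8.31 and 7.84, 5 of them highest in replicate 4, and the 10 proximal tubule markers had 10.86, 10.85 and 10.22. The 7 measured renin cell markers had 10.01, 9.54 and 9.61 and the 10 smooth muscle markers 10.27, 9.94 and 10.19. No marker of either list was highest in replicate 4. The share of all called genes highest in replicate 4 was not computed, so these counts are not read as a link to Pde3b. All 10 proximal tubule, 5 thick ascending limb, 6 principal cell and 6 intercalated cell markers were called, and 10 of 14 endothelial ones. The share of all genes called was 37.3%, so the samples held transcripts of these cells too. The endothelial list lay nearer the level in replicates 4 and 5, with mean heights of 1.66, 0.71 and 0.49 in replicates 2, 4 and 5. Of 5 podocyte and 9 leukocyte markers none was called, and leukocyte means were 5.27, 5.23 and 5.41. The part of these cells in any phosphodiesterase signal was not tested. All 7 measured renin cell markers were called, among them Gja5 (mean log2 signal 11.34) and Agtr1a (8.66), while Ren1, Akr1b7 and Adrb1 were not analysed here. Whether these 7 markers are particular to renin cells was not tested.

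**Figure D3:**
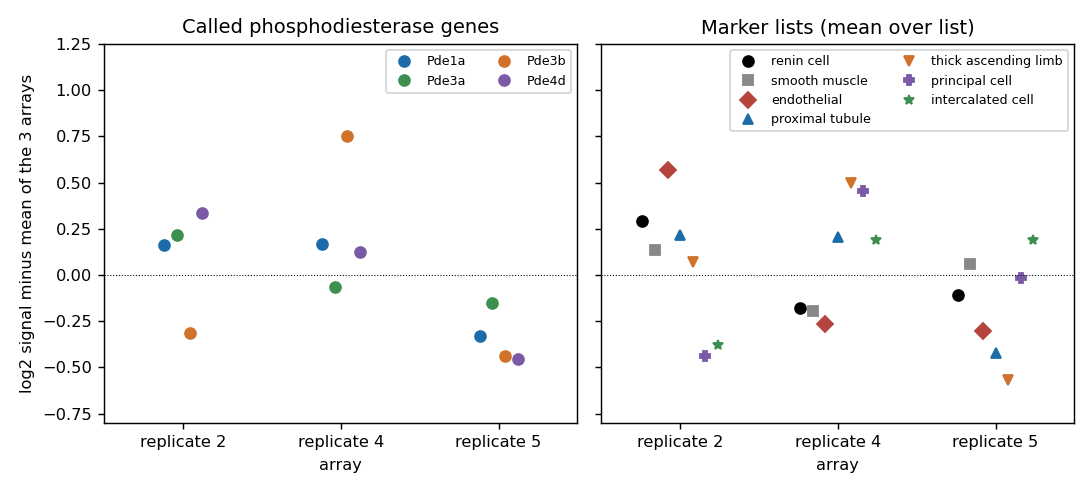
Log2 signal minus the mean of the 3 arrays for the 4 called phosphodiesterase genes (left) and for the mean of each marker list (right), by array. Pde3b is highest in replicate 4, as are the thick ascending limb and principal cell lists, though the principal cell list is lowest in replicate 2. All 4 genes are lowest in replicate 5 on this scale (3 of 4 after quantile normalization). The shares of all called genes highest in replicate 4 or lowest in replicate 5 were not computed.

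Among 1021 called genes that ranged over 1 log2 unit, those nearest to Pde3b in their deviations over the 3 arrays were Bspry (largest difference 0.031 log2 units), Tmem126b (0.037), Akr1c19 (0.054), Cask (0.056) and Plet1 (0.062). Bspry, for example, had log2 signals of 7.45, 8.56 and 7.31. Likeness over 3 arrays is weak, and 19 genes lay within 0.1 log2 units of Pde3b.

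Of the other 14 genes with a phosphodiesterase symbol 7 were called (50%). With the 10 members, 11 of 24 were called (45.8%, against 37.3% of all genes). Both counts of calls include Pde6d and Pde6h, whose products are not themselves enzymes, so they are not counts of enzymes alone. The cAMP-specific Pde7b had log2 signals of 8.75, 9.36 and 9.24, a mean 2.77 above the level (limma adjusted p = 2.87e-05). Pde8a, a cAMP-specific enzyme of high affinity, had 8.45, 8.82 and 7.78, lowest in replicate 5 and spanning 1.04 log2 units, with a mean 2.01 above the level (limma adjusted p = 0.000405). Pde4c (6.91 ± 0.29), Pde8b (6.84 ± 0.26) and the cGMP-specific Pde9a (7.23 ± 0.13) were called too. Pde8b was not called once replicate 2 or 4 was left out (limma adjusted p = 0.0732 and 0.0827) nor was Pde4c without replicate 4 (limma adjusted p = 0.11). Also called was Pde6d (7.61 ± 0.32), whose product is a prenyl-binding chaperone and not an enzyme. Pde6h (7.24 ± 0.24), an inhibitory subunit known from cones, was called as well. The other PDE6 genes of photoreceptors, Pde6a, Pde6b, Pde6c and Pde6g, had means under the level, as did Pde1b and Pde11a, and Pde10a did not pass (0.24 above it, limma adjusted p = 0.175).

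**Figure D4:**
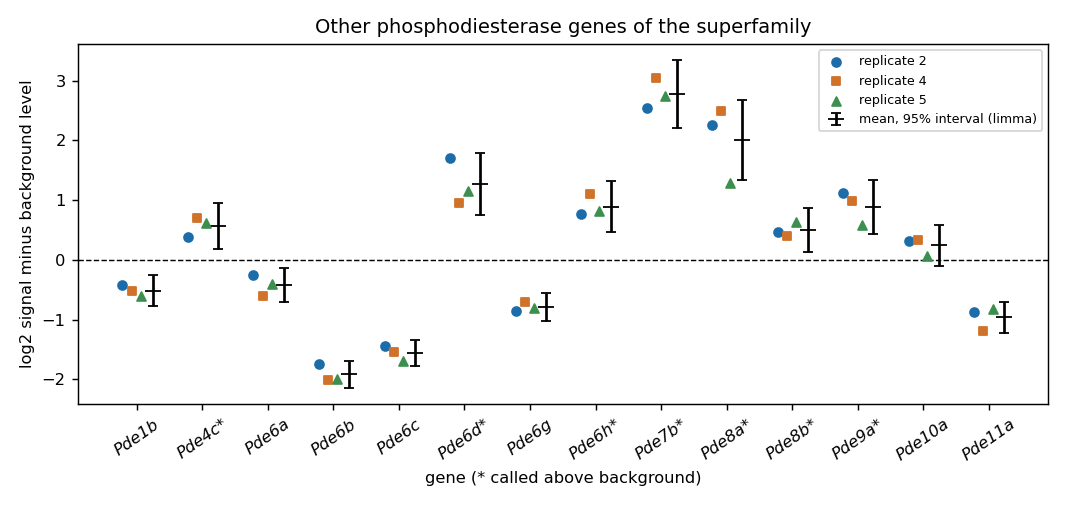
Log2 signal minus the background level for the 14 other phosphodiesterase genes (symbols, the 3 arrays; black bar, mean with the 95% interval of the limma fit). Pde7b (2.77) and Pde8a (2.01) have means over 2 log2 units above the level, and the means of Pde1b, Pde6a, Pde6b, Pde6c, Pde6g and Pde11a lie under it.

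Over the other lists of the pathway together (cyclases and natriuretic peptide receptors, cAMP effectors, cGMP kinases and substrates, anchoring proteins, calmodulin and calcineurin, and exporters) 35 of 58 measured genes were called (60.3%, against 37.3% of all genes), with a median height of 0.72. Of 10 adenylyl cyclases, which make cAMP, 5 were called, Adcy6 (7.94 ± 0.34) and Adcy4 (7.72 ± 0.16) among them. Of 12 guanylyl cyclases and natriuretic peptide receptors 5 were called, with the soluble cyclase subunits Gucy1a1 (9.31 ± 0.12) and Gucy1a2, which had 10.37, 8.80 and 9.26 and was highest in replicate 2. Among the effectors of cAMP 5 of 9 were called, including the kinase subunits Prkar1a (9.36 ± 0.15) and Prkacb (9.27, 9.02 and 8.25, lowest in replicate 5) and the factor Creb1 (9.03, 9.33 and 8.64).

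All 6 measured cGMP kinase genes and substrates were called, with Ppp1r12a, the myosin phosphatase subunit, at 10.86 ± 0.14 and phospholamban, Pln, at 9.65 ± 0.50. Both kinase genes were lowest in replicate 4, Prkg1 with 8.33, 7.34 and 8.49 and Prkg2 with 8.51, 7.59 and 9.30. The renin cell and smooth muscle lists also had their lowest means in replicate 4, and the thick ascending limb and principal cell lists their highest. The share of all called genes lowest in replicate 4 was not computed. All 5 measured calmodulin and calcineurin genes were called, Calm2 (13.01 ± 0.06) and Calm3 (10.46 ± 0.40) among them, calmodulin being the activator of PDE1. Anchoring proteins were called in 8 of 14 cases, with Akap11 at 9.31 ± 0.16 and Akap8 at 8.84 ± 0.32, and 1 of 2 cyclic nucleotide exporters was called, Abcc5 (7.07 ± 0.15), not called once replicate 4 was left out (limma adjusted p = 0.0554).

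**Figure D5:**
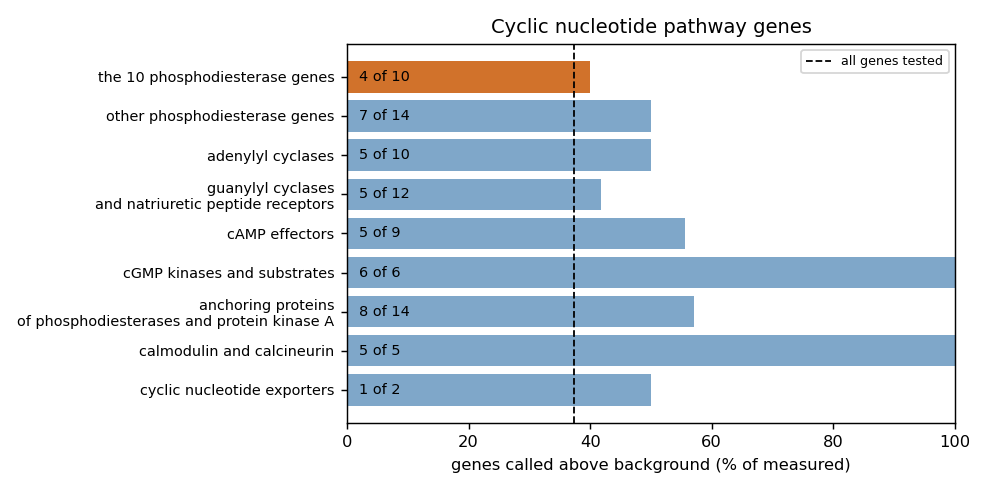
Share of measured genes called above background in each list (bars, in percent, with counts), with the share of all genes tested as a dashed line at 37.3%. The 10 phosphodiesterase genes (4 of 10) lie near that line, and the cGMP kinase list (6 of 6) and the calmodulin and calcineurin list (5 of 5) lie at 100%.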

How the data were processed

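The authors deposited 1 log2 signal per probe set for each of 3 arrays, made with Affymetrix Expression Console per the submitters' processing notes. How this tool summarised and normalised the probes, and its version, is not given in the sources used here. No source states the log base; base 2 was taken because values ran from 2.21 to 13.96. Samples were not pooled, per the labels, but nothing says outright that each came from its own animal, so a p-value here reflects only how these samples vary, and the number of arrays limits the precision. Of 35557 probe sets 21789 had 1 symbol in the platform annotation; 1621 with several and 12147 not listed were left out. For a gene with several probe sets the brightest was taken. Heights above the background level were fitted over all genes in R 4.3.3 by limma 3.58.1. The fit had an intercept alone, a trended eBayes and a threshold of 0.05. It was also run on simulated data, drawn for each gene on its own. That run held no array effects and cannot show how probe affinity enters a call. Python 3.11.15, pandas 2.3.3 and matplotlib 3.10.9 were used. The members and lists were chosen with earlier results of these data known. All 10 members are named. Of each pathway list up to 2 highest called members and called ones ranging over 1 log2 unit were named. The other 14 genes with a phosphodiesterase symbol, Gja5 and Agtr1a were added after their values were seen. Alternatives were other background levels, probe set rules, normalization, filter, variance model and leaving out each replicate.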

Additional observations from a re-analysis of the deposited data

How the results depend on the processing

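The 99th percentile of olfactory receptor genes gave 2 members, 2 other phosphodiesterase genes, 22 pathway genes and 3303 genes in all; the level from 163 vomeronasal receptor genes gave 8 members and 13410 genes; that from 44 keratin-associated protein genes gave 0 members (limma; 1 at an unadjusted p under 0.05), 0 other phosphodiesterase genes, 3 pathway genes and 709 genes. Heights changed sign with the vomeronasal level for Pde1c (0.10), Pde2a (0.73), Pde4a (0.59) and Pde5a (0.07), and with the 90th percentile for Pde2a (0.20) and Pde4a (0.06). They did so with the 99th percentile for Pde4b (-0.63) and Pde7a (-0.77), and with the keratin level for Pde3b (-1.38), Pde4b (-2.10), Pde4d (-0.73) and Pde7a (-2.23). Members ranging over 1 log2 unit numbered 2 after subtracting each array's level, 2 with the mean over probe sets and, leaving out a replicate, 0 to 1. Leaving out a replicate gave 3 to 4 members. Quantile normalization, eBayes without a trend and the filter, which kept 6 of the 10 members, changed no call of a member tested. No paired analysis was possible because the series holds 1 group. A different level shifts every height on an array by construction; the cause of the other changes was not tested.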
